A study of Homo sapiens with 8 samples.

Results

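Ribosome occupancy was described for 34 subunits of the Polycomb repressive complexes PRC1 and PRC2 and of their partners, out of 20719 gene IDs counted. The members were taken by name, under a rule that uses no measured value, but they were chosen with earlier results of these data known. Of the 34, 32 had enough counts to enter the tests, and EPOP and BMI1 had 0 counts in every library. The cells were G401, an established rhabdoid kidney tumor cell line that lacks SMARCB1, a core subunit of the mSWI/SNF chromatin remodeling complex. A pair of engineered G401 lines carried a Tet-On cassette, a promoter switched on by doxycycline, that drove either SMARCB1 or, as control, GFP. Treatment was 12 h of doxycycline (Dox) at 0.1 μg/ml, or DMSO alone, which gave 4 groups called SMARCB1 Dox, SMARCB1 DMSO, GFP Dox and GFP DMSO, with 2 libraries each. Ribosome protected fragments were captured with RiboLace, a pull-down of ribosomes in active translation, and counted over coding sequences. All 8 libraries thus shared the G401 background without its own SMARCB1, and SMARCB1 came only from the cassette. Whether the lines were single clones is not given in the sources used here, so what the transgene did and how the lines otherwise differed cannot be told apart in comparisons between lines. By the study's methods, several plates were pooled for a condition and the experiment was run in duplicate, but neither they nor the labels say that the 2 libraries of a group came from separate cultures, so the p-values measure only the spread between these libraries, which may be technical.

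Polycomb proteins keep developmental genes silent. PRC2 methylates lysine 27 of histone H3 through EZH2 or EZH1, which work with EED, SUZ12 and the histone binding proteins RBBP4 and RBBP7. PRC1 places ubiquitin on histone H2A through RNF2 or RING1, paired with a PCGF protein: canonical PRC1 also holds a CBX protein, which reads the PRC2 mark, and a PHC protein, whereas variant PRC1 holds RYBP or YAF2. The deubiquitinase BAP1 with ASXL1 removes the PRC1 mark. SWI/SNF remodelers oppose Polycomb at chromatin, and loss of SMARCB1 in rhabdoid tumors is known for disturbing that balance.

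The libraries held between 5924443 and 14000039 footprints assigned to genes, with counts for 11602 to 12662 genes. With SMARCB1 Dox, SMARCB1 itself was counted 2553 and 1750 times, and the other 6 libraries held 0, as the labels say. GFP Dox replicate 1 stood apart, with 56.4% of its alignments from reads with more than 1 place, against 25.6% to 39.7% in the other 7 libraries. Of the markers of other cell types, PTPRC, CD3E and CD14 of white blood cells, KDR of endothelium, MYOD1 and MYOG of skeletal muscle, ELAVL4 of neurons, and PAX8, CDH16 and UMOD of kidney epithelium were at 0 throughout. The summed level of the rest of these 5 lists stayed at or below 1.73 CPM, a gene's counts scaled to the same total of gene counts in each library.

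Many Polycomb subunits have close paralogs, so whether a footprint can be assigned to a single gene matters for what follows. The most alike stretches of 60 coding bases inside 1 exon are shown for 3 pairs that the results turn on, as read from GRCh38, with bases identical within a pair in capitals and differing bases in lower case. The PCGF5 stretch lies in its first coding exon at chr10:91222915-91222974 on the plus strand, and that of PCGF3 in its first coding exon at chr4:733721-733780 on the plus strand.
PCGF5: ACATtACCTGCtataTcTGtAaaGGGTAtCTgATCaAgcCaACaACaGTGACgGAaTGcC
PCGF3: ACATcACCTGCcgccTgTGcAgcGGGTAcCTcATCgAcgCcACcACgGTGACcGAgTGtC
EZH2 is shown in coding exon 14 at chr7:148814045-148814104 on the minus strand, and EZH1 in coding exon 14 at chr17:42706093-42706152 on the minus strand.
EZH2: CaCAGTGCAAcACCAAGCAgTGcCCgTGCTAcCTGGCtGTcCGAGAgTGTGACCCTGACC
EZH1: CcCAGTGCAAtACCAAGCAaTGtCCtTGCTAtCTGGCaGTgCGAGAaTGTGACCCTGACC
RBBP4 is shown in coding exon 6 at chr1:32669072-32669131 on the plus strand, and RBBP7 in coding exon 6 at chrX:16853683-16853742 on the minus strand.
RBBP4: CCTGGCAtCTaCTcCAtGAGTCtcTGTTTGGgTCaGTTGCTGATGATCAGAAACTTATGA
RBBP7: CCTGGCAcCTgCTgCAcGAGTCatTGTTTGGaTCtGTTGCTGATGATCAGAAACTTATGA
Even at its most alike stretch, PCGF5 differed from PCGF3 at 20 of 60 bases, EZH2 from EZH1 at 9 and RBBP4 from RBBP7 at 8. The longest run shared by any stretch of 2 paralogs was 10 bases for PCGF5 and PCGF3, 20 for EZH2 and EZH1, 26 for RBBP4 and RBBP7 and 20 for PHC2 and PHC1, all shorter than a window of 28 bases, about the length of a footprint. The fewest mismatches in such a window were 1 for RBBP4 and RBBP7, 2 for EZH2 and EZH1, 2 for PHC2 and PHC1 and 7 for PCGF5 and PCGF3. By this measure PCGF5 was closer to PCGF1 and BMI1, with 4 mismatches each, and to PCGF6, with 6.

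Other copies in the genome were a larger limit than the named paralogs. Of the 28-base coding windows of each member, 93.9% in PHC1, 68.0% in RBBP4, 50.2% in PCGF6, 21.96% in SUZ12, 21.2% in RNF2, 12.1% in PCGF1 and 10.9% in EED also occurred elsewhere on the assembled chromosomes, so the levels of these 7 members are uncertain. In the other 27 members the share was at most 5.98%, in EZH2, and it was 1.75% in PCGF5 and 1.45% in PHC2. On contigs outside the chromosomes, copies covered 100% of the windows of EPOP, 90.01% in RING1, 80.5% in PCGF2 and 79.5% in PHF1. Whether the authors' genome held these contigs is not given in the sources used here, so the levels of these 4 members are uncertain as well. All 978 coding bases of BMI1, a PCGF protein of canonical PRC1, also belonged to the readthrough gene COMMD3-BMI1, so that a counting rule that needs a single gene gave BMI1 none. COMMD3-BMI1 had 5 and 9 counts in SMARCB1 Dox, 10 and 15 in SMARCB1 DMSO, 0 and 18 in GFP Dox and 17 and 21 in GFP DMSO. The 0 counts of BMI1 and EPOP therefore set no upper limit on their occupancy.

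RBBP4 and RBBP7 of the PRC2 core were the most heavily occupied members. As TPM, counts per coding length scaled to the same total in each library, the level over the 8 libraries was 185 ± 36.3 for RBBP4 and 150 ± 24.7 for RBBP7 (SD, n = 8), both of which also serve in other histone complexes. SUZ12, the PRC2 scaffold, had 72.3 ± 15.4, EZH2, the main methyltransferase, 59.4 ± 11.9, and EED, which binds methylated H3, 53.6 ± 9.97 TPM. The last 3 overlapped within their SD, and all 5 lay above the median of 22.9 TPM over the tested genes. EZH1, the alternative methyltransferase, had 7.19 ± 2.0 TPM, below every one of them.

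The PRC2 accessory subunits were lower than the core apart from EZH1, and EPOP was at 0. MTF2, a Polycomb-like protein that brings PRC2 to CpG islands, had 41.1 ± 6.07 TPM and AEBP2, a stabilizing subunit, 39.1 ± 5.65, which did not differ beyond their spread. PHF19, also Polycomb-like, had 28.9 ± 5.38. JARID2, which helps recruit PRC2, had 7.73 ± 1.99 and PHF1, the third Polycomb-like protein, 7.24 ± 2.36 TPM.

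In PRC1, RNF2 led RING1, but both levels are uncertain. Copies on contigs outside the chromosomes covered 90.01% of RING1 windows, and 21.2% of RNF2 windows occurred elsewhere on the chromosomes. RNF2, the catalytic RING protein, had 33.1 ± 7.07 TPM and its paralog RING1 2.97 ± 1.63. RYBP and YAF2, the alternative adaptors of variant PRC1, had 18.8 ± 3.98 and 10.0 ± 3.96. Among the PCGF proteins, which set the kind of PRC1, PCGF3, PCGF6 and PCGF1 lay at 22.7 ± 7.78, 22.5 ± 7.29 and 17.5 ± 3.76 TPM. Their order depended on the coding length used, since with the longest coding sequence of a single transcript the means were 44.2, 20.7 and 16.1 TPM. PCGF2, which marks canonical PRC1, had 8.57 ± 4.14 and PCGF5, a partner of variant PRC1 close to PCGF3, 2.10 ± 2.54, with an SD above its mean because it was at 0 in 1 of the lines.

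Of the canonical readers, CBX6 had 62.3 ± 13.2 TPM against 13.8 ± 2.64 for CBX2, 11.7 ± 3.75 for CBX8 and 8.14 ± 2.28 for CBX7. PHC3, 1 of the polymerizing PHC proteins, had 22.1 ± 4.53 TPM, PHC2 7.34 ± 3.59 and PHC1 0.760 ± 0.375, and SCMH1, a related scaffold, 5.11 ± 1.27. L3MBTL2, a partner of PCGF6, had 86.1 ± 15.5, the highest PRC1 value, and KDM2B, which brings PCGF1 to CpG islands, 18.1 ± 3.26. BAP1 and ASXL1 of the deubiquitinase had 61.2 ± 9.80 and 50.2 ± 10.8 TPM. The median over the tested members was 20.5 TPM, against 22.9 over all tested genes.

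**Figure D1:**
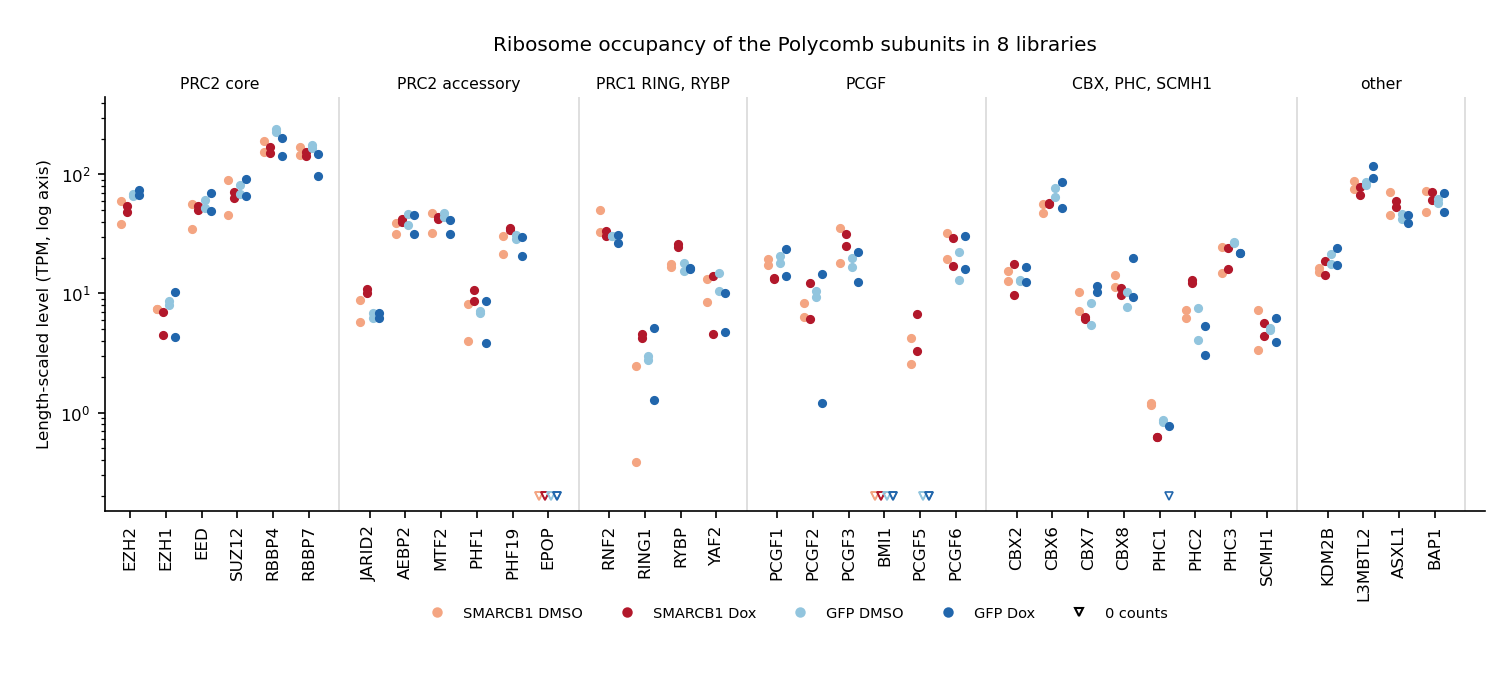
Length-scaled level (TPM, log axis) of the 34 members by complex, with 1 point per library, colored by group; open triangles at the bottom mark 0 counts. RBBP4 and RBBP7 sit highest, EPOP and BMI1 have 0 counts everywhere and PCGF5 has 0 in the GFP libraries only.

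Within paralog groups, a single subunit mostly held the larger share of the length-scaled level. EZH2 held 88.9% ± 3.34 of EZH1 and EZH2 together (SD, n = 8), between 83.7% and 94.5% in single libraries. RNF2 held 91.3% ± 4.91 of its pair and CBX6 64.7% ± 6.63 of the 4 CBX proteins. RBBP4 held 55.2% ± 4.06 of its pair with RBBP7, at 47.8% to 56.7% over the SMARCB1 libraries and 57.4% to 59.9% over the GFP libraries. As 68.0% of RBBP4 windows occurred elsewhere, this share was not read as a difference between the lines. Of the Polycomb-like proteins MTF2 held 53.5% ± 3.12, PHF19 37.4% ± 1.99 and PHF1 9.15% ± 1.82. RYBP held 65.8% ± 10.6 of its pair with YAF2. These shares are descriptions with no test. Copies in the genome make those with RNF2, RING1, RBBP4 or PHF1 uncertain.

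In the PHC and PCGF groups some mean shares differed between the lines. Copies in the genome make the levels of PHC1, PCGF1, PCGF2 and PCGF6 uncertain. BMI1 could not be counted, so the PCGF shares leave out whatever part it held. The share of PHC2 in the PHC level was 31.7% ± 9.32 over the SMARCB1 libraries and 16.5% ± 4.71 over the GFP libraries (SD, n = 4), and it reached 33.2% and 43.8% in the SMARCB1 Dox libraries. PHC3 held 65.1% ± 8.44 and 81.6% ± 5.57. Of the PCGF level, PCGF1 took 19.8% ± 3.42 and 29.4% ± 2.83 in these lines, and PCGF5 5.13% ± 1.88 and 0.

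**Figure D2:**
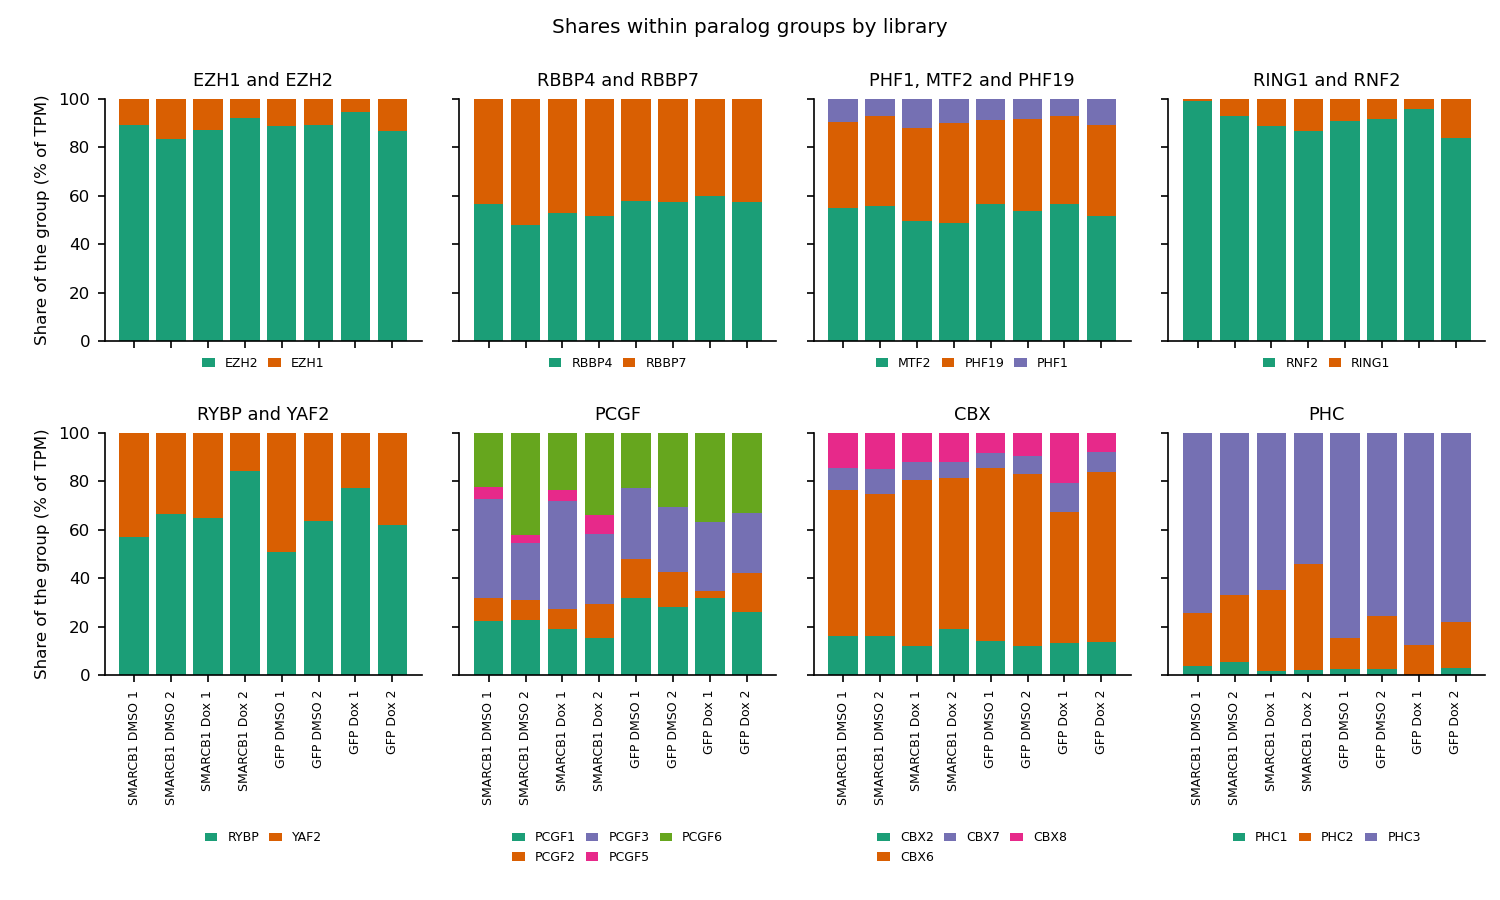
Share of each paralog in the length-scaled level of its group (% of TPM), stacked to 100% for each of the 8 libraries, with 1 panel per group. EZH2 and RNF2 hold most of their pairs in every library, PHC2 holds its largest shares in the SMARCB1 Dox libraries (33.2% and 43.8%) and PCGF5 appears only in the SMARCB1 line. Shares that include members with copies in the genome, such as RNF2 and RING1, are uncertain. BMI1 could not be counted and is missing from the PCGF panel.

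The question of the study was what re-expression of SMARCB1 changes. At 12 h, 0 of the 32 tested Polycomb members passed the test between SMARCB1 Dox and SMARCB1 DMSO, where 0.018% of all 11097 genes tested did (edgeR's quasi-likelihood test, Benjamini-Hochberg adjusted p below 0.05). PHC2 alone had an unadjusted p below 0.05, a rule that 4.97% of all genes met. The log2 fold changes of the members ran from -1.02 in PHC1 to 1.26 in RING1, with 13 of 32 above 0 against 47.2% of all genes. Their median was -0.05, against -0.02 over all genes. PHC1 and RING1 were among the tested members with the fewest counts, and copies in the genome make both levels uncertain. RING1 had 45 and 26 counts in SMARCB1 Dox and 2 and 34 in SMARCB1 DMSO. For 17 of 32 members the 95% interval lay within a 2-fold change in either direction, and for the other 15 the interval reached past a 2-fold change in at least 1 direction. In bulk libraries, fewer cells that express a gene and fewer footprints per cell cannot be told apart.

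Of the PRC2 core, EZH2 had 91.3 and 103 CPM in the SMARCB1 Dox libraries and 107 and 76.9 in SMARCB1 DMSO, so the groups overlapped, and the log2 fold change was -0.02 (SE 0.24, 95% interval -0.54 to 0.51). EED had 67.0 and 62.3 CPM with Dox and 64.3 and 46.0 with DMSO, a log2 fold change of 0.13 (SE 0.28, interval -0.47 to 0.74). SUZ12 had 121 and 109 CPM with Dox and 145 and 83.4 with DMSO, which gave -0.08 (SE 0.30, interval -0.72 to 0.57). In each of these 3 the DMSO replicates differed from each other by more than the group means did. EZH1 had 12.1 and 7.83 CPM with Dox and 12.0 and 13.7 with DMSO, with a log2 fold change of -0.47 (SE 0.38, interval -1.29 to 0.35). The adjusted p was 1 for all 4 in edgeR's quasi-likelihood test.

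The 2 members with the smallest p-values were both PRC1 subunits. PHC2 had 24.9 and 26.6 CPM in SMARCB1 Dox and 13.8 and 13.6 in SMARCB1 DMSO, so both Dox libraries lay above both DMSO libraries. Its log2 fold change was 0.80 (SE 0.34, interval 0.07 to 1.53), with adjusted p = 0.937 by edgeR's quasi-likelihood test (0.0343 unadjusted). RNF2 had 25.8 and 23.6 CPM with Dox and 36.5 and 27.4 with DMSO. Its log2 fold change was -0.47 (SE 0.28, interval -1.07 to 0.13, adjusted p = 1 in the same test). As 21.2% of RNF2 windows occurred elsewhere, its level is uncertain. Neither PHC2 nor RNF2 passed after adjustment.

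GFP Dox against GFP DMSO served as control for doxycycline and for inducing another protein. Here 0 of 32 members passed, as did 0% of all genes, and an unadjusted p below 0.05 was found for 0 members and for 2.16% of all genes. Without GFP Dox replicate 2 the group was left with replicate 1 alone, the library with 56.4% of its alignments from reads with several places. More genes then passed but no member did, and the median log2 fold change of the members was -0.09. The members ran from -1.16 in PHC1 to 0.85 in CBX8 on the log2 scale, 19 were above 0 against 52.9% of all genes, and the median was 0.02, equal to that of all genes. For 23 of 32 the interval lay within a 2-fold change.

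CBX8, a reader of the PRC2 mark, had 17.7 and 8.24 CPM in GFP Dox and 6.92 and 8.93 in GFP DMSO, with a log2 fold change of 0.85 (SE 0.43, interval -0.08 to 1.78). Its high value came from GFP Dox replicate 1, the library with the largest share of such alignments, and without that library the log2 fold change was 0.01. L3MBTL2 had 196 and 150 CPM with Dox and 136 and 140 with DMSO, which gave 0.45 (SE 0.25, interval -0.09 to 0.98), and 0.08 without the same library. EZH2, EED, SUZ12 and EZH1 had log2 fold changes of 0.16, 0.21, 0.19 and -0.14 in this line. The adjusted p was 1 for all 6 in edgeR's quasi-likelihood test.

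**Figure D3:**
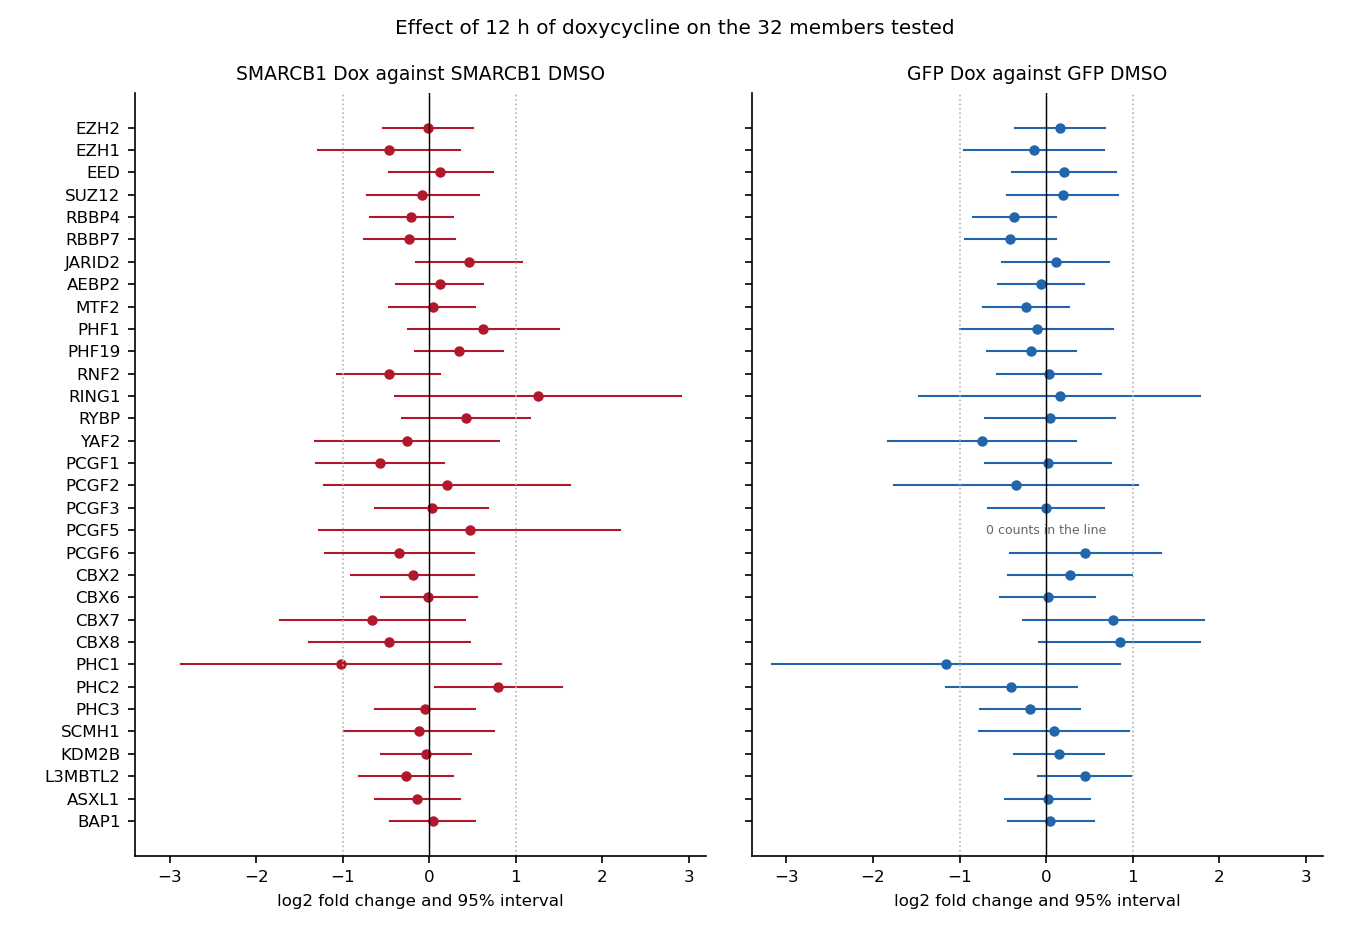
Log2 fold change of 12 h of doxycycline with its 95% interval for the 32 members tested, in the SMARCB1 line (left) and the GFP line (right); dotted lines mark a 2-fold change, and PCGF5 has no value in the GFP line, where it had 0 counts. Only the interval of PHC2 in the SMARCB1 line, 0.07 to 1.53, does not include 0, and no member passed after adjustment.

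The effects of doxycycline in the 2 lines were then set against each other in 1 interaction term. Of the members 0 passed, as did 0% of all genes, and an unadjusted p below 0.05 was found for 1 member and 3.99% of all genes. Without GFP Dox replicate 2, which left replicate 1 alone in that group, more genes passed but no member did. With all libraries the 1 member was PHC2, whose fold change in the SMARCB1 line exceeded that in the GFP line (log2 -0.40, SE 0.35) by 1.20 on the log2 scale (SE 0.49, interval 0.15 to 2.25), with adjusted p = 0.981 by edgeR's quasi-likelihood test (0.0283 unadjusted). For EZH2 the difference was -0.18 with an interval of -0.91 to 0.56, so a fold change up to 0.91 lower in the SMARCB1 line could not be told from none. The interval lay within a 2-fold difference for 12 members.

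More members passed between the lines than between treatments. Over both treatments, 2 of the 32 tested members, PCGF5 and PHC2, were higher in the SMARCB1 line and 0 were lower, where 11.2% of all genes passed, 5.79% higher and 5.38% lower. An unadjusted p below 0.05 was found for 6 members, PCGF5, PHC2, PCGF3, ASXL1, EZH2 and JARID2, and for 23.1% of all genes, and neither share of members was read as differing from the background. Without GFP Dox replicate 2, which left replicate 1 alone in that group, EZH2, PHC1 and PCGF3 passed as well, and more of all genes did. The median log2 difference of the members was 0.04 against 0.00 over all genes, and the interval lay within a 2-fold difference for 26 of them. On the CPM scaled by the normalization factors, the 4 libraries of a line did not overlap with those of the other in 4 members, PCGF3, PCGF5 and ASXL1 above and EZH2 below, where 17.6% of all genes showed such a split.

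PCGF5 had 22 and 24 counts in SMARCB1 Dox, 14 and 22 in SMARCB1 DMSO, and 0 in all 4 GFP libraries. All 4 SMARCB1 libraries, at 1.61 to 3.996 CPM, thus lay above the GFP libraries, treated or not. The gene lies at chr10:91163012-91284337 in GRCh38, and 1.75% of its coding windows occurred elsewhere.
With 82 counts against 0, its CPM over the pooled libraries was at least 29.0-fold higher in the SMARCB1 line, taking a floor of 3 counts over the GFP libraries, and at least 18.4-fold to 32.5-fold with any 1 library left out. PCGF5 passed the filter on low counts only through the line where it is high, so a tested value had to differ between the lines, and its p-values add no support beyond the counts. The adjusted p was 0.000699 in edgeR's quasi-likelihood test, 0.0112 under DMSO, where 5.29% of all genes passed (2.67% higher, 2.62% lower), and 0.0190 under Dox, where 6.55% passed (3.31% higher, 3.24% lower). The difference was thus also measured without induction, where PCGF5 was the only 1 of the 32 tested members to pass. This call was lost without any 1 of the 4 DMSO libraries (adjusted p = 0.0667 to 0.146, edgeR), while the counts were 14 and 22 against 0 and 0. The log2 fold change upon Dox within the SMARCB1 line was 0.47 (SE 0.81, interval -1.27 to 2.21).

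PHC2 had 24.9, 26.6, 13.8 and 13.6 CPM in the SMARCB1 line, Dox libraries first, and 6.06, 10.3, 8.08 and 14.5 in the GFP line. The Dox libraries of the SMARCB1 line lay above all others, whereas its DMSO libraries fell inside the range of the GFP line. The log2 difference over both treatments was 0.95 (SE 0.25, interval 0.42 to 1.48, adjusted p = 0.0206 in edgeR's quasi-likelihood test). Under Dox it was 1.55 (SE 0.36, adjusted p = 0.0155) and under DMSO 0.35 (SE 0.34, adjusted p = 0.770). The test of whether these differ is the interaction given above, which did not pass after adjustment. The call over both treatments was lost without SMARCB1 Dox replicate 1 (adjusted p = 0.0681), SMARCB1 Dox replicate 2 (0.0750), SMARCB1 DMSO replicate 2 (0.0622) or GFP DMSO replicate 1 (0.131), while the edgeR log2 difference stayed between 0.77 and 1.19.

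PCGF3, the nearest relative of PCGF5, had 37.3, 29.8, 39.5 and 22.9 CPM in the SMARCB1 line and 14.3, 25.04, 19.2 and 21.9 in the GFP line. Without the normalization factors GFP Dox replicate 2 thus lay above SMARCB1 DMSO replicate 2, so the split holds only on the scaled CPM. The log2 difference was 0.66 (SE 0.22, interval 0.19 to 1.13, adjusted p = 0.0729 in edgeR's quasi-likelihood test). ASXL1 had 215, 193, 245 and 176 CPM against 137, 155, 148 and 158, a log2 difference of 0.44 (SE 0.16, adjusted p = 0.107). JARID2 had 0.45 (SE 0.20, adjusted p = 0.203). None of these 3 passed.

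EZH2 was the member with the lowest log2 difference between the lines. It had 91.3, 103, 107 and 76.9 CPM in the SMARCB1 line and 135, 119, 126 and 118 in the GFP line, so that every SMARCB1 library lay below every GFP library. The log2 difference was -0.44 (SE 0.17, interval -0.81 to -0.07), with adjusted p = 0.131 by edgeR's quasi-likelihood test, and -0.35 under DMSO and -0.53 under Dox. It passed only without GFP Dox replicate 2, at -0.55, in a fit that left GFP Dox with replicate 1 alone. EED, SUZ12 and EZH1 had -0.24 (SE 0.20), -0.20 (SE 0.21) and -0.18 (SE 0.27), with adjusted p of 0.528, 0.651 and 0.767 in the same test, and their libraries overlapped.

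**Figure D4:**
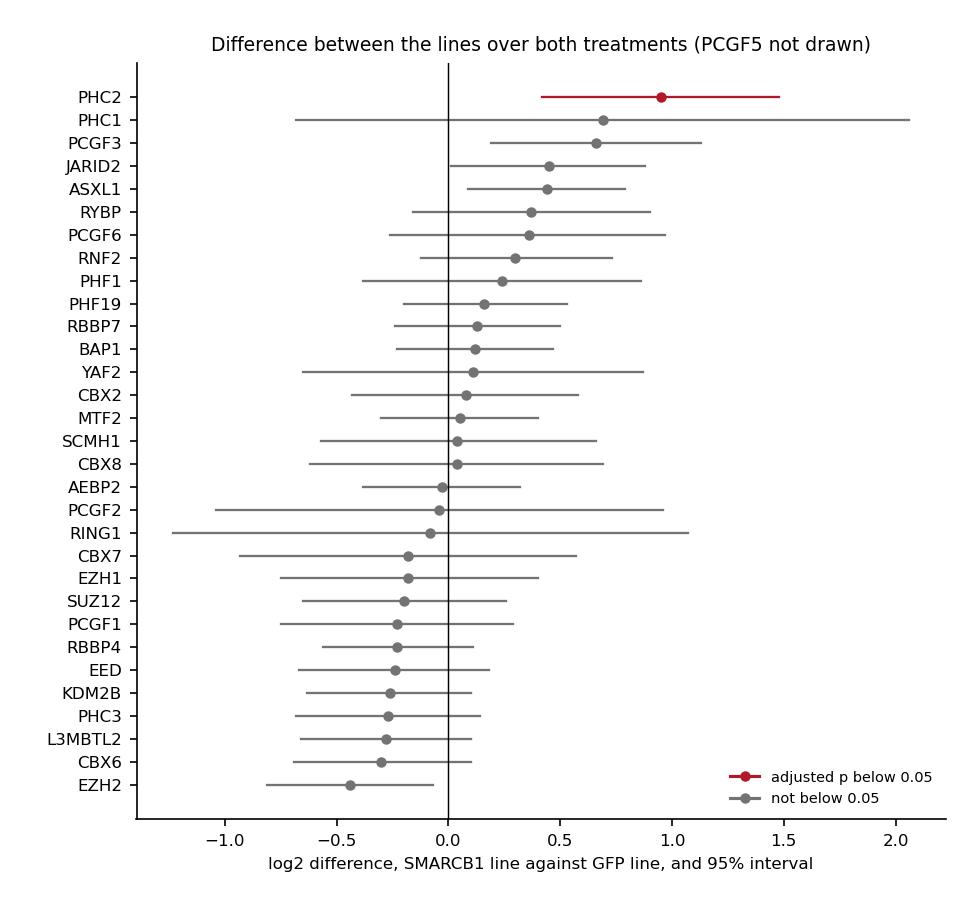
Log2 difference between the SMARCB1 line and the GFP line over both treatments, with its 95% interval, for 31 members in order of size; PCGF5 is left out because it had 0 counts in the GFP line. PHC2, in red, passed after adjustment (0.95), and EZH2 (-0.44) lies at the lower end without passing.

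**Figure D5:**
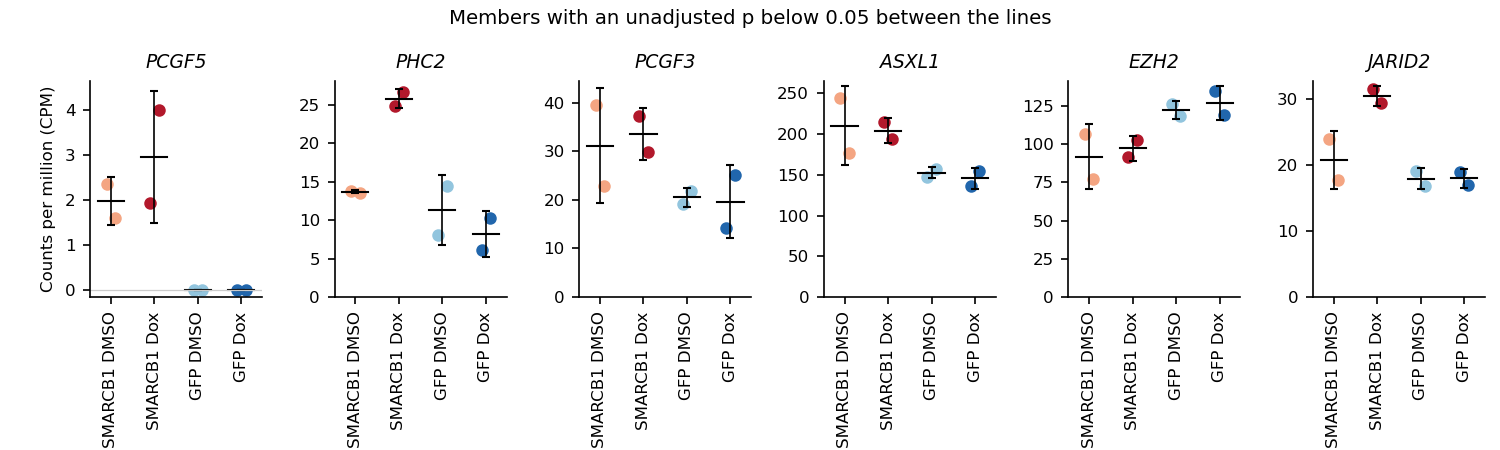
CPM by library for the 6 members with an unadjusted p below 0.05 between the lines; dots are libraries, horizontal lines are group means and bars are SD (n = 2 libraries). PCGF5 is at 0 in the GFP line, PHC2 is highest in SMARCB1 Dox and EZH2 is lower in each SMARCB1 library than in each GFP library.

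Other markers moved with the line. The mesenchymal markers summed to 2525 to 3231 CPM over the SMARCB1 libraries and to 1112 to 1812 over the GFP libraries, mostly from VIM, while S100A6 of the same list had at most 0.365 CPM in the SMARCB1 line and at least 34.2 in the GFP line. The keratins KRT8 and KRT18, known from rhabdoid tumors, summed to 2067 to 3182 and 3469 to 4358 CPM. None of the 5 mesenchymal and 2 keratin markers was at 0 throughout, but only 3 of the 5 mesenchymal markers had enough counts to be tested. Their part in the differences of PCGF5, PHC2 and EZH2 was not tested.

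Further genes of the pathway were taken from 4 lists, which were also chosen with earlier results of these data known. Of 35 further Polycomb subunits, 29 were tested and 0 passed in either Dox comparison or in their difference, while between the lines 4 passed as higher in the SMARCB1 line and 2 as lower, 20.7% of those tested against 11.2% of all genes, with a median of -0.08 against 0.00 over all genes. L3MBTL3, a reader of methylated histones, had 30.5 to 57.7 CPM with SMARCB1 and 96.7 to 107 with GFP, and was lower by a log2 difference of -1.27 (SE 0.17, adjusted p = 0.000105 in edgeR's quasi-likelihood test). SCML2, a PRC1 partner, was lower (-0.69, SE 0.19, adjusted p = 0.0326), and SFMBT1, an MBT domain protein, higher (0.65, SE 0.18, adjusted p = 0.0319). SCML1, at 0.657 to 2.19 CPM against at most 0.333, was higher as well (adjusted p = 0.0199 in the same test), and the other 2 were FBRSL1 and SFMBT2. SCML1 passed the filter on low counts only through the SMARCB1 line, so its p-value adds no support beyond the counts. The 20.7% includes SCML1 and describes the tested genes only. L3MBTL3 also had a log2 fold change of -0.89 (SE 0.24) upon Dox in the SMARCB1 line, with adjusted p = 0.407 by edgeR's quasi-likelihood test.

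Of 4 enzymes that act on the same lysine 27, 2 demethylases and 2 acetyltransferases, all were tested and 0 passed with Dox. KDM6B, a demethylase that removes the PRC2 mark, was higher in the SMARCB1 line, with 27.8 to 35.0 CPM against 13.0 to 21.5 and a log2 difference of 0.79 (SE 0.20, adjusted p = 0.0186 in edgeR's quasi-likelihood test). Of 27 mSWI/SNF subunits other than SMARCB1, 24 were tested and 0 passed in any of the 6 comparisons, where the share over all genes ran from 0% and 0.018% for Dox to 11.2% between the lines, with medians of -0.15 for Dox in the SMARCB1 line and 0.06 between the lines, against -0.02 and 0.00 over all genes.

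Of 56 developmental genes known as Polycomb targets in many cell types, 18 had 0 counts in all libraries and 21 were tested. None of the 21 passed upon Dox in either line or in the difference. Between the lines 8 passed, 5 with more and 3 with less occupancy in the SMARCB1 line, 38.1% against 11.2% of all genes, with a median log2 difference of 0.41 against 0.00. FOXC2 and FOXD1, forkhead factors of mesoderm and kidney stroma, were higher, by 3.03 (SE 0.38, adjusted p = 6.8e-05) and 2.89 (SE 0.39, adjusted p = 0.000115 in edgeR's quasi-likelihood test). FOXC2 had 11.3 to 14.7 CPM against 0.583 to 2.18, and FOXD1 7.45 to 11.8 against 0.622 to 1.64. PAX2, a factor of kidney development, was lower, with 0 to 0.803 CPM against 4.0 to 9.33 (log2 difference -4.23, SE 0.60, adjusted p = 0.000208 in the same edgeR test). PAX2 passed the filter on low counts only through the GFP line, so its p-value adds no support beyond the counts. FGF8, a growth factor of the embryo, was at 0 in all SMARCB1 libraries and at 0.583 to 1.71 CPM in the GFP line, and passed the filter on low counts only through the latter. FOXC1, HAND1 and LHX2 were also higher and GATA2 lower. Members of the list moved in both directions. The 38.1% counts genes such as PAX2 and FGF8 that were tested because they were high in 1 line. It is thus a description of the tested genes and not of the whole list.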

How the data were processed

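Ribosome profiling was analysed in 8 libraries. Per the labels and the study's methods, RiboLace footprints were aligned by the authors to hg38 with STAR and counted with HTSeq (intersection-strict, coding sequence, GENCODE annotation 42), and the deposited values are raw counts per gene. Tool versions and the strand option are not given in the sources used here, and the matched RNA-seq was not analysed here, so values are occupancy and not translation efficiency. The 5 totals of reads without a gene were left out. Of uniquely aligned reads, 52.8% to 61.8% fell on coding sequence. Of the alignments, 25.6% to 56.4% came from reads with several places, a share that leaves out unaligned and low-quality reads. Symbols and coding lengths came from GENCODE 44 (20408 of 20719 IDs had a symbol, 311 did not).

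All 8 libraries were fitted together in edgeR 4.0.16 (R 4.3.3, limma 3.58.1; filterByExpr, TMM, quasi-likelihood test with 1 term per group), with Benjamini-Hochberg adjustment over 11097 genes and a threshold of 0.05. CPM used gene totals; TPM used the union of coding exons. Replicates differed by more than sampling noise. The fit was also run on simulated data with the same spread for every gene and changes only in well-counted genes. That run gives no assurance for members with few counts, such as PCGF5. Copies in the genome were found as exact matches of 28-base windows of canonical coding sequences.

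The members and lists were chosen with earlier results of these data known. Full values were given for EZH2, EED, SUZ12 and EZH1, for every member called in a comparison, and for the 2 members with the smallest p per Dox comparison; from each further list, at most the 4 genes with the smallest p among those called between the lines. PCGF3, ASXL1, JARID2, COMMD3-BMI1 and the list genes beyond these were named after their values were seen. Alternatives were other size factors, DESeq2 1.42.0, other filters, a robust fit, a fit of the compared groups alone, a block for the replicate number, another coding length and leaving out each library.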

Additional observations from a re-analysis of the deposited data

How the results depend on the processing

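The 0 members called in either Dox comparison and in their difference stayed 0 under every alternative run, DESeq2 included. Between the lines over both treatments the count of 2 became 1 when at least 10 counts were required in every library, which removes PCGF5 by construction, and ranged from 1 to 5 with 1 library left out, 5 without GFP Dox replicate 2 (EZH2, PHC1, PHC2, PCGF3 and PCGF5). DESeq2 and the fit without a filter called 3, adding PCGF3. Under DMSO the count of 1 became 0 with that minimum and 0 without any 1 of the 4 libraries. Under Dox the count of 2 became 1 with the minimum and ranged from 0 to 5 with 1 library left out, 0 without SMARCB1 Dox replicate 2 or GFP Dox replicate 1 and 5 without GFP Dox replicate 2 (PHC1, PHC2, PCGF2, PCGF5 and L3MBTL2). A group left with 1 library was assumed to vary like the others. Without GFP Dox replicate 2, that group was replicate 1 alone, the library with 56.4% of its alignments from reads with several places. PCGF5 passed over both treatments in all 14 alternatives that kept it. It had 0 counts in the GFP line and, with the main filter, was tested only through the SMARCB1 line, so these calls add no support beyond the counts. Under DMSO it did not pass without any 1 library, and under Dox not without SMARCB1 Dox replicate 2 or GFP Dox replicate 1. PHC2 under Dox did not pass without SMARCB1 Dox replicate 1 (0.0904), SMARCB1 Dox replicate 2 (0.0961) or GFP Dox replicate 1 (0.0792).

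Signs that turned belonged to differences that passed no test. Between the lines, with 1 library left out, SUZ12 ranged from -0.38 to 0.03 (without GFP Dox replicate 1) and EZH1 from -0.37 to 0.11 (without GFP Dox replicate 2). For Dox in the SMARCB1 line, EZH2 became 0.08 and SUZ12 0.02 with library size as the only scaling, and with 1 library left out EZH2 ranged from -0.19 to 0.17 (0.06 without SMARCB1 Dox replicate 1), SUZ12 from -0.38 to 0.30 and EED from -0.04 to 0.33. That scaling moved the median of all genes for Dox with SMARCB1 from -0.02 to 0.09, that of the difference from -0.03 to 0.16 and that between the lines under Dox from -0.01 to 0.11. With the longest coding sequence in place of the exon union, RYBP held 54.1% of its group and PCGF3 47.7% of the PCGF proteins counted. The cause of these changes was not tested.

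With the replicate number as a block, the members called were 0, 0, 0, 2, 1 and 2 over the 6 comparisons, and the same members. Over all genes the block gave 13 calls for Dox in the SMARCB1 line against 2, while DESeq2 gave 36 and no filter 46. Deviations of same-numbered libraries correlated at 0.047 to 0.363 over 6 pairs of groups, all above 0 and 5 of them above 0.1. The labels do not say whether the numbers pair the samples. The main fit had no term for the number, so a pairing, if there was one, was left out of it. The fit with only the groups compared needs 2 groups and was not possible for the difference and for the lines over both treatments.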
